A study of Mus musculus with 35 samples.

Results

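Sphingosine 1-phosphate (S1P) is a signalling lipid made inside cells, and the genes that make it, export it, sense it and destroy it are described here in the mouse aorta. The members were taken by symbol: the kinases Sphk1 and Sphk2, the lyase Sgpl1, the phosphatase Sgpp1, the receptors S1pr1, S1pr2 and S1pr3, the transporter Spns2 and the plasma carrier Apom. Of these 9 symbols, 8 were matched among the 14174 genes of the table, and Apom was not analysed here. The study asked what apolipoprotein A-I (apoA-I), the chief HDL (high-density lipoprotein) protein, does to the aorta of mice prone to atherosclerosis. Total RNA of the aorta was sequenced in 35 libraries of 12 groups, made of 3 genotypes, 2 diets and 2 durations. The genotypes were mice without apolipoprotein E that overexpress human apoA-I (EKO/hA-I), mice without apolipoprotein E (EKO) and wild type (WT), all on C57BL/6. Mice were 8 weeks old when they began a Western diet (WD) or stayed on chow, and they were fed for 6 or 22 weeks, so that they were 14 or 30 weeks old at the end. There were 3 libraries per group, and 2 in the group of EKO/hA-I mice fed chow for 6 weeks. EKO/hA-I mice carry the same Apoe deletion as EKO mice, and the labels used here do not give the promoter that drives the human transgene. The tissue was the whole perfused vessel, from its root down to where the iliac arteries part, stripped of surrounding fat.

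S1P is formed when a sphingosine kinase phosphorylates sphingosine, and it is ended either by phosphatases, which return it to sphingosine, or by the lyase, which cleaves it for good. Endothelial cells release S1P through SPNS2, and in plasma it travels on HDL through apolipoprotein M and on albumin. In the vessel wall, S1PR1 couples to Gi and tightens endothelial junctions, whereas S1PR2 couples to G12/13 and opposes cell migration, and S1PR3 couples to Gi, Gq and G12/13.

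The promoters of the 4 members that were higher in EKO than in WT aortas after 22 weeks of WD are shown, because these are the genes the results turn on. RefSeq sequences of GRCm38.p6 were available for 7 of the 8 measured members, S1pr1 being named only. Each runs from 250 bases before to 50 bases after the annotated start, 5′ to 3′ on the gene's strand. Sphk1 has 5 annotated starts, and the most upstream one (start 1) and the next (start 2) are given. Capitals mark matches, on either strand, to the AP-1 motif (TGACTCA), the E-box with the letters CACGTG, a KLF motif (CCACCC), the GC box with the letters GGGCGG, the TATA box (written TATAAA) and a cAMP response element (TGACGTCA). A DR4 element, which binds LXR, was also searched.
Sphk1 start 1, chr11:116530850-116531149, plus strand: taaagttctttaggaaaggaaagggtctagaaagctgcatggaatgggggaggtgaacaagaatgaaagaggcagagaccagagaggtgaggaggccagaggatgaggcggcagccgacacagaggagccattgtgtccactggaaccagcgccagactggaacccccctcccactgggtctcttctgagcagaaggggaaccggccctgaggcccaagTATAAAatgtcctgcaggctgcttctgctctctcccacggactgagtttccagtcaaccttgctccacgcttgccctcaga
Sphk1 start 2, chr11:116531587-116531886, plus strand: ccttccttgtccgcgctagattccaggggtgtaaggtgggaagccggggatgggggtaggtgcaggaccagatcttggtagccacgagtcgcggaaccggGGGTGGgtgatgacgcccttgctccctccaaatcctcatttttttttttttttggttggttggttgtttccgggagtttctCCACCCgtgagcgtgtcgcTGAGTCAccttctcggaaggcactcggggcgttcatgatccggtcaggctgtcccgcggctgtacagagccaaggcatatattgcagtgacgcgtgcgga
S1pr2, chr9:20976744-20977043, minus strand: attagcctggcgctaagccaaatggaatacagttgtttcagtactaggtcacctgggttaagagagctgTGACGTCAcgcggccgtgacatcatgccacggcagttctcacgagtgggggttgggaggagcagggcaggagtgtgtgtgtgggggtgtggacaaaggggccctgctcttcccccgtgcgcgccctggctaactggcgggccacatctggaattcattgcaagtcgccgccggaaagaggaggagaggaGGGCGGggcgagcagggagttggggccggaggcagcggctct
Sgpl1, chr10:61147635-61147934, minus strand: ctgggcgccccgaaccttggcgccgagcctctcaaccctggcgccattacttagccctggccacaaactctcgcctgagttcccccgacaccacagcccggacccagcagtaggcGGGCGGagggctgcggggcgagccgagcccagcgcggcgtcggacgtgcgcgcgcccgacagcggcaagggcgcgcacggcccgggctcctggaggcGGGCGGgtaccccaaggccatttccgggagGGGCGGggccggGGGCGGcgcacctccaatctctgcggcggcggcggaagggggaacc
Spns2, chr11:72474978-72475277, minus strand: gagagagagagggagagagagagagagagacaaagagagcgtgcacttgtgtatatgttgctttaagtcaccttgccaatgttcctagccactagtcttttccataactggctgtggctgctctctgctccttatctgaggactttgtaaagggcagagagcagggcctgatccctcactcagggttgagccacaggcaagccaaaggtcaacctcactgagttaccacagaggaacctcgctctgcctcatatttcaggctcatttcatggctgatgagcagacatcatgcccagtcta

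No motif was present in the windows of all 4 genes. Start 1 of Sphk1 held TATAAA at -31, which 13.6% of the 32851 promoters in the table hold, and start 2 held AP-1 at -50, which 5.2% hold, with 2 KLF matches, which 31.5% hold. The S1pr2 window held the cAMP response element at -181, present in 1.79% of promoters, and a GC box at 9. Sgpl1 had 4 GC boxes, a motif found at least once in 35.7% of promoters, and its window was 75.3% G or C with 38 CpG, against medians of 52.7% and 7 over all promoters. Spns2 had no match and 2 CpG. The E-box was in none of the 5 windows printed, although starts 4 and 5 of Sphk1 hold it (7.15% of promoters), and the DR4 element, present in 0.0152% of promoters, was in none of the members' windows. Such matches describe letters and say nothing of binding.

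Values are the authors' normalised read values and can be compared between libraries for 1 gene, not between genes, since no division by gene length is stated. Between 6855556 and 25330381 reads stood behind a library, as inferred from the step between low values. Apoe was between 5.37 and 29.7 in the EKO/hA-I and EKO libraries and between 416 and 1276 in the WT libraries, so it parted WT from the other genotypes but does not tell EKO/hA-I from EKO; reads of the human transgene were not analysed here. In 1 library of WT on WD for 22 weeks (replicate 3) the genotype tag says EKO, against its title, and its Apoe of 540.4 lies within the WT range. Endothelial, smooth muscle and macrophage markers were all measured, 12 of 12, 12 of 12 and 14 of 14. Markers of neighbouring tissue differed widely between libraries: the summed value of 10 brown fat genes ranged over libraries from 1461 to 14644, that of 12 skeletal muscle genes from 12.2 to 4450, with the 3 EKO/hA-I libraries on WD for 22 weeks between 1025 and 3546, and that of 10 sympathetic nerve genes from 34.0 to 2721. Y-linked transcripts were counted as missing in 12 libraries, where the mean of 4 such genes was under 5 and reached 1.33 at most. Differences below are log2 of value plus 1 ± SE from limma, called at an adjusted p under 0.05 over 14157 tested genes, and all 8 measured members were tested. Shares of all genes are given at that adjusted threshold only. Counts of members at an unadjusted p under 0.05 therefore have no share of all genes to be set beside them.

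After 22 weeks of WD, 4 of the 8 members were higher in EKO than in WT aortas and 0 were lower, against 14.8% of all tested genes higher and 7.20% lower. They were the inducible kinase Sphk1, the lyase Sgpl1, the receptor S1pr2 and the exporter Spns2. Sphk1 had 20.2, 15.9 and 15.9 in EKO libraries and 2.10, 3.55 and 2.61 in WT libraries, so the lowest EKO library stood far above the highest WT one. Its mean was 17.4 ± 2.49 in EKO and 2.75 ± 0.735 in WT (SD, n = 3 each), a log2 difference of 2.30 ± 0.33 (adjusted p = 6.48e-06). These are low values, with 249 to 309 reads in the EKO libraries and 24 to 65 in the WT libraries.

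Sphk2, the second kinase, which is found in the nucleus and mitochondria, had 50.5, 57.9 and 65.8 in EKO and 42.5, 40.6 and 42.3 in WT libraries. The groups did not overlap, but the difference of 0.46 ± 0.23 missed the threshold (adjusted p = 0.169). In the annotation, Sphk2 overlaps Dbp and Rpl18 on the opposite strand and Spns2 overlaps Mybbp1a. Whether reads were assigned by strand is not given in the sources used here, so the values of Sphk2 and Spns2 may include reads of those genes; the same holds for Sphk1, which overlaps an annotated antisense transcript, and for S1pr3, which overlaps a noncoding gene on the opposite strand.

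The lyase Sgpl1 had 301, 259.8 and 301 in EKO libraries, against 93.5, 70.5 and 90.5 in WT libraries. Every EKO value was above every WT value, and the difference was 1.76 ± 0.36 (adjusted p = 6.31e-04). Sgpp1, the phosphatase of the endoplasmic reticulum, had 37.1, 28.5 and 33.0 in EKO and 33.1, 34.9 and 34.0 in WT libraries, ranges that overlap, with a difference of -0.06 ± 0.16 (adjusted p = 0.851). Whether the lyase and the phosphatase differed from each other was not tested.

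Among the receptors, S1pr2 had 36.4, 31.7 and 44.4 in EKO and 22.0, 15.5 and 14.1 in WT libraries, a difference of 1.09 ± 0.27 (adjusted p = 0.00395). S1pr1, the main endothelial S1P receptor, had 117, 119 and 111 in EKO and 60.4, 58.1 and 102 in WT libraries, and its difference of 0.69 ± 0.29 missed the threshold (adjusted p = 0.0933). The EKO libraries lay close together, while WT replicate 3 lay near them; this is the library with the conflicting tag. S1pr3 overlapped between the groups, with 16.0, 31.8 and 23.0 in EKO and 9.63, 20.8 and 13.1 in WT libraries (0.68 ± 0.46, adjusted p = 0.333). Spns2, the exporter, had 23.3, 28.9 and 28.2 in EKO and 11.9, 14.1 and 15.7 in WT libraries, with no overlap and a difference of 0.90 ± 0.24 (adjusted p = 0.0063).

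Macrophage markers moved with these genes: 14 of 14 were higher in EKO, their summed value was 7306 to 12557 in EKO and 349 to 656 in WT libraries, and none was at 0. Endothelial markers were higher in 3 of 12 and lower in 0, summing to 2393 to 2496 in EKO libraries, against 1409 to 1658 in WT ones. Smooth muscle markers went the other way, with 5 of 12 lower and a summed value of 7013 to 12093 in EKO and 18598 to 30140 in WT libraries. In bulk tissue, more cells of a type and more RNA per cell cannot be told apart, and the part of these lists in the results was not tested. Brown fat markers were lower in 1 of 10 and higher in 0. With a term for brown fat markers in the fit, the differences were 2.10 for Sphk1, 2.03 for Sgpl1, 0.97 for S1pr2 and 1.01 for Spns2, all 4 still called.

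**Figure D1:**
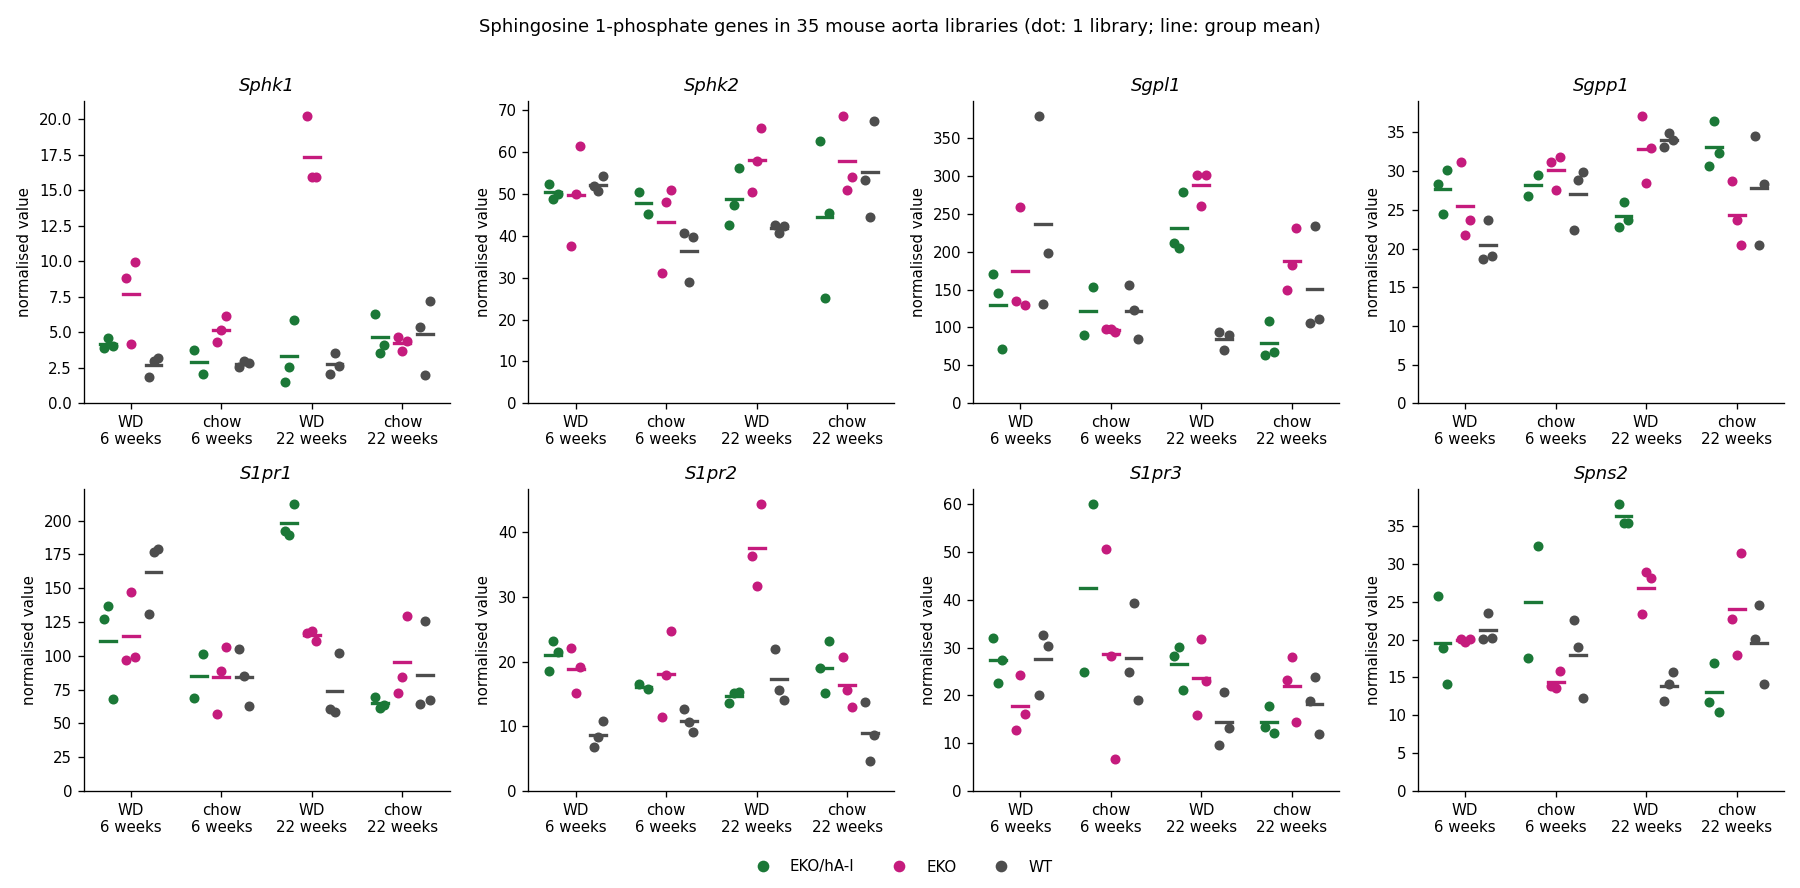
Normalised value (vertical axis, linear from 0, a scale of its own for each gene) of the 8 members in 35 libraries. Dots are libraries and lines are group means, for EKO/hA-I, EKO and WT within each diet and duration; Sphk1 and S1pr2 are highest in EKO on WD for 22 weeks, S1pr1 and Spns2 in EKO/hA-I on WD for 22 weeks.

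With human apoA-I added, 2 of the 8 members were lower after 22 weeks of WD in EKO/hA-I aortas than in EKO aortas and 0 were higher, beside 12.9% of all genes lower and 5.96% higher. They were Sphk1 and S1pr2. Sphk1 had 1.51, 2.56 and 5.87 in EKO/hA-I libraries, against 20.2, 15.9 and 15.9 in EKO libraries, and fell by 2.21 ± 0.33 on the log2 scale (adjusted p = 2.14e-05). The EKO/hA-I mean of 3.31 ± 2.27 was close to the WT mean of 2.75 ± 0.735, and the difference between EKO/hA-I and WT was 0.09 ± 0.33 (adjusted p = 0.875). S1pr2 had 13.6, 15.2 and 15.3 in EKO/hA-I and 36.4, 31.7 and 44.4 in EKO libraries, and fell by 1.28 ± 0.27 (adjusted p = 0.00128). Against WT its difference was -0.19 ± 0.27 (adjusted p = 0.651), and the ranges of EKO/hA-I and WT overlapped.

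Sgpl1 and Spns2, also higher in EKO than in WT, were not called in EKO/hA-I against EKO. Sgpl1 had 211, 205 and 278 in EKO/hA-I and 301, 259.8 and 301 in EKO libraries, which overlap (-0.32 ± 0.36, adjusted p = 0.581). Spns2 had 38.0, 35.3 and 35.4 in EKO/hA-I and 23.3, 28.9 and 28.2 in EKO libraries, which do not overlap, but the difference of 0.43 ± 0.24 had an adjusted p of 0.213. S1pr1 had 192, 189 and 213 in EKO/hA-I and 117, 119 and 111 in EKO libraries, again without overlap, and its difference of 0.77 ± 0.29 had an adjusted p of 0.0627. Sgpp1 also narrowly missed the threshold, at -0.42 ± 0.16 (adjusted p = 0.0629).

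Macrophage markers were lower in 13 of 14 genes in this comparison, with a summed value of 755 to 1639 in EKO/hA-I libraries, against 7306 to 12557 in EKO ones. Skeletal muscle markers were higher in 10 of 12, at 1025 to 3546 in EKO/hA-I libraries, against 29.5 to 146 in EKO ones, and brown fat markers in 2 of 10. Adventitial fibroblast markers were lower in 3 of 12, at 5495 to 8033 in EKO/hA-I libraries, against 10956 to 14217 in EKO ones. The part of macrophage and fibroblast markers was not tested. Sphk1 was still called with terms for brown fat and skeletal muscle, at -1.53 (adjusted p = 0.0108), whereas S1pr2 was then at -0.98 (adjusted p = 0.0843), and at -0.93 with the brown fat term alone (adjusted p = 0.0379).

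Set against WT on the same diet and time, EKO/hA-I aortas had 3 of 8 members higher and 1 lower, beside 8.51% and 9.46% of genes. S1pr1 was higher by 1.46 ± 0.29 (adjusted p = 0.0025), with 192, 189 and 213 in EKO/hA-I and 60.4, 58.1 and 102 in WT libraries. Spns2 was higher by 1.33 ± 0.24 (adjusted p = 0.00141) and Sgpl1 by 1.44 ± 0.36 (adjusted p = 0.00961). The EKO/hA-I values of each lay above its WT range. Sgpp1 was lower by a small amount, -0.48 ± 0.16 (adjusted p = 0.0387), with 22.8, 26.1 and 23.7 in EKO/hA-I and 33.1, 34.9 and 34.0 in WT libraries, and it lost the call without any 1 of the 6 libraries (adjusted p up to 0.115). Endothelial markers were higher in 5 of 12, summing to 2113 to 3028 in EKO/hA-I libraries, against 1409 to 1658 in WT ones, and smooth muscle markers lower in 10 of 12. With the brown fat term, S1pr1 was at 1.10 and Spns2 at 1.13, both called, and Sgpl1 at 0.91 (adjusted p = 0.0365), while Sgpp1 was not called (adjusted p = 0.188). Sgpl1 was at an adjusted p of 0.0502 without WT WD 22 weeks replicate 2. With skeletal muscle added to that term, Sgpl1 was not called (adjusted p = 0.0651).

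**Figure D2:**
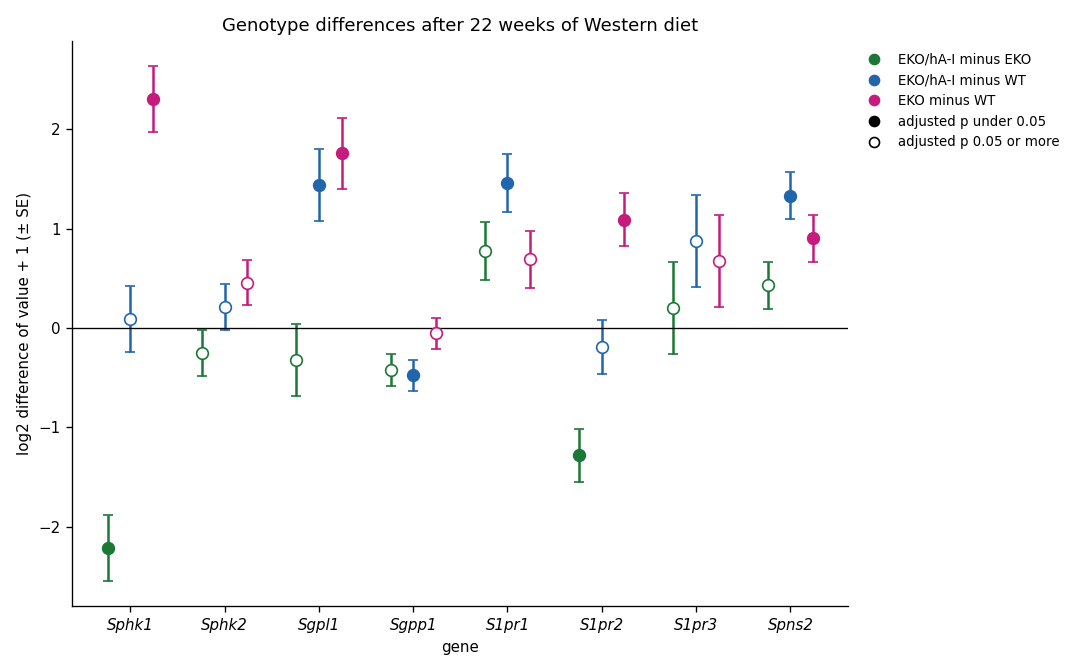
Log2 differences of value plus 1 (vertical axis, bars ± SE) of the 8 members between genotypes after 22 weeks of WD, 3 libraries in each group. Filled points passed an adjusted p of 0.05; Sphk1 is at -2.21 for EKO/hA-I minus EKO, 0.09 for EKO/hA-I minus WT and 2.30 for EKO minus WT.

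The members called for the Western diet at 22 weeks differed by genotype. In EKO aortas, 2 of 8 members were higher on WD than on chow and 0 lower, beside 13.9% and 4.80% of genes. Sphk1 had 20.2, 15.9 and 15.9 on WD and 4.68, 3.69 and 4.39 on chow, a rise of 1.80 ± 0.33 (adjusted p = 2.83e-04). S1pr2 had 36.4, 31.7 and 44.4 on WD and 20.6, 15.5 and 13.0 on chow, a rise of 1.16 ± 0.27 (adjusted p = 0.00324). Neither gene's groups overlapped. Macrophage markers rose in 14 of 14 there, to a summed 7306 to 12557 on WD, against 1117 to 1844 on chow. Adventitial fibroblast markers summed to 10956 to 14217 on WD and 6515 to 9854 on chow, and endothelial markers to 2393 to 2496 and 1618 to 2283. Smooth muscle markers were lower, at 7013 to 12093 on WD and 12704 to 17544 on chow. The part of these 4 lists was not tested. In this contrast brown fat and skeletal muscle markers had 0 calls, and Y-linked transcripts were missing in 1 of 3 WD libraries, against 2 of 3 chow libraries.

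In EKO/hA-I aortas at 22 weeks, 3 members rose on WD and 1 fell, beside 20.7% and 17.5% of genes. S1pr1 had 192, 189 and 213 on WD and 69.6, 61.1 and 63.9 on chow, a rise of 1.59 ± 0.29 (adjusted p = 6.21e-04). Spns2 had 38.0, 35.3 and 35.4 on WD and 11.8, 16.9 and 10.4 on chow (1.44 ± 0.24, adjusted p = 3.61e-04), and Sgpl1 had 211, 205 and 278 on WD and 64.1, 108 and 68.0 on chow (1.55 ± 0.36, adjusted p = 0.00255). Sgpp1 fell by 0.44 ± 0.16 (adjusted p = 0.0317), with 22.8, 26.1 and 23.7 on WD and 30.7, 36.4 and 32.3 on chow. Sphk1 and S1pr2 were not called here, at -0.49 ± 0.33 and -0.34 ± 0.27. Sgpp1 lost its call without EKO/hA-I chow 22 weeks replicate 2 (0.11) or 3 (0.0648), or EKO/hA-I WD 22 weeks replicate 1 (0.0926) or 3 (0.0699).

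Markers of several tissues differed in that contrast as well. Skeletal muscle markers were higher on WD in 12 of 12, at a summed 1025 to 3546 on WD and 23.5 to 54.6 on chow. Brown fat markers were higher in 7 of 10 and lower in 1, at 6135 to 7786 on WD and 1847 to 2208 on chow, endothelial markers were higher in 8 of 12 and lower in 1, and smooth muscle markers were lower in 11 of 12 and higher in 1. With the brown fat term none of the 4 members was called: S1pr1 was at 0.88 (adjusted p = 0.132), Spns2 at 1.03 (0.0871), Sgpl1 at 0.51 (0.42) and Sgpp1 at 0.04 (0.907). With skeletal muscle markers added to that term, S1pr1 was at 1.24 (adjusted p = 0.274) and Spns2 at 1.19 (0.298). Brown fat sums did not overlap between WD and chow here, so the term and the diet cannot be told apart. The share of all genes called with these terms is not given here. Relative to the mean log2 value of the 12 endothelial markers in the same library, S1pr1 was 0.31 ± 0.24 on WD and -0.79 ± 0.19 on chow in EKO/hA-I aortas at 22 weeks, while in EKO aortas it was -0.18 ± 0.10 on WD and -0.32 ± 0.24 on chow (SD, n = 3 each). In WT aortas at 22 weeks this S1pr1 level was -0.42 ± 0.44 on WD and -0.38 ± 0.385 on chow. At 6 weeks it was 0.16 ± 0.14 on WD and -0.21 ± 0.07 on chow in WT aortas. EKO aortas at 6 weeks had -0.24 ± 0.39 and -0.30 ± 0.32, and EKO/hA-I aortas -0.31 ± 0.44 and -0.57 ± 0.37 (n = 2 on chow). These relative levels are given as a description, without a test.

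In WT aortas the diet called 0 of 8 members at 22 weeks and 0 at 6 weeks (limma), beside 1.36% and 1.43% of genes called. At 6 weeks 0 members were called in EKO and 0 in EKO/hA-I, beside 0.0848% and 0.00706% of genes called. At an unadjusted p under 0.05, WT had 1 member at 22 weeks, S1pr2, and 4 at 6 weeks. EKO had 1 at 6 weeks, Sgpl1, and EKO/hA-I 0. The share of all genes at that unadjusted threshold was not computed.

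The difference between diet effects at 22 weeks was itself tested. The WD effect on Sphk1 was larger in EKO than in WT by 2.34 ± 0.47 (adjusted p = 0.00269), 1 of 8 members called beside 6.21% of genes. In EKO/hA-I minus EKO it differed by -2.29 ± 0.47 (adjusted p = 8.85e-04), and that contrast called 5 members beside 34.2% of genes. The others were S1pr2 at -1.49 ± 0.38 (adjusted p = 0.00442), Sgpp1 at -0.86 ± 0.22 (adjusted p = 0.00497), S1pr1 at 1.28 ± 0.41 (adjusted p = 0.0185, and 0.0679 without EKO chow 22 weeks replicate 3) and Spns2 at 1.25 ± 0.34 (adjusted p = 0.00601). None of these 5 was called with the brown fat term (Sphk1 adjusted p = 0.159), whereas the difference between EKO and WT in Sphk1 was called under every setting tried. For Sgpl1, called for diet in EKO/hA-I and not in EKO, the difference of 0.91 ± 0.51 was not called (adjusted p = 0.168).

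**Figure D3:**
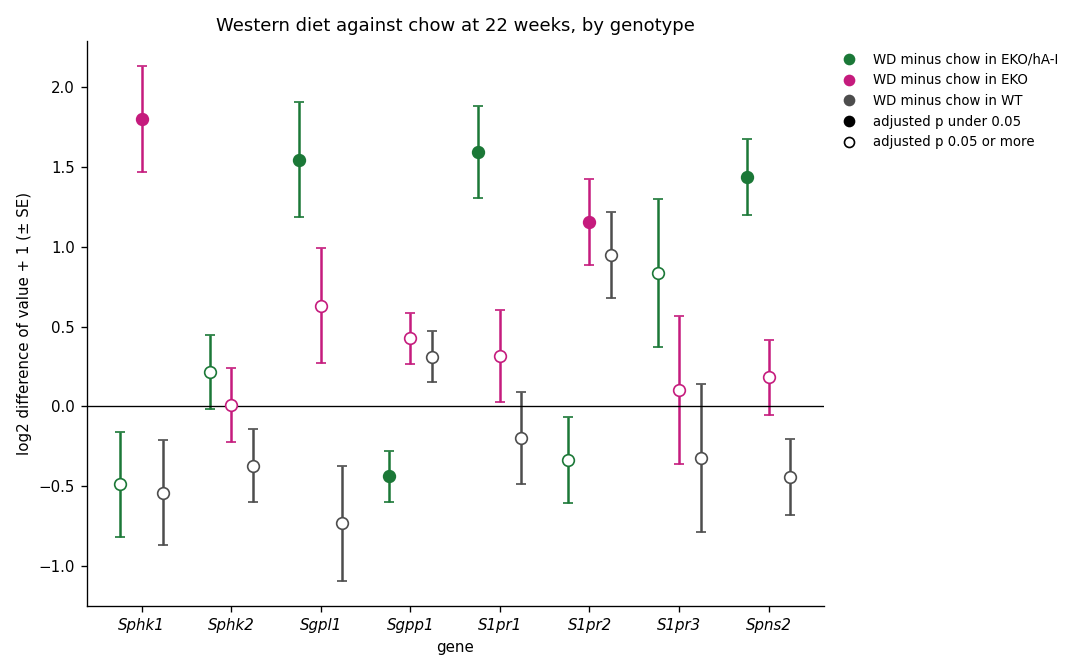
Log2 difference of value plus 1 between WD and chow at 22 weeks (vertical axis, bars ± SE) for each member in EKO/hA-I, EKO and WT aortas, 3 libraries in each group. In EKO, Sphk1 (1.80) and S1pr2 (1.16) passed the test, in EKO/hA-I, S1pr1 (1.59), Spns2 (1.44), Sgpl1 (1.55) and Sgpp1 (-0.44), and in WT 0 members.

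Longer feeding of WD was compared within each genotype. In EKO aortas, 2 of 8 members were higher at 22 than at 6 weeks and 0 lower, beside 10.5% and 2.97% of genes. Sphk1 had 20.2, 15.9 and 15.9 at 22 weeks and 8.82, 4.2 and 9.98 at 6 weeks (1.15 ± 0.33, adjusted p = 0.0188), and S1pr2 had 36.4, 31.7 and 44.4 at 22 weeks and 22.2, 15.2 and 19.2 at 6 weeks (0.96 ± 0.27, adjusted p = 0.0166). Both calls were lost without EKO WD 6 weeks replicate 2 (adjusted p = 0.139 and 0.0814), Sphk1 also without EKO WD 22 weeks replicate 1 (0.084) and S1pr2 without replicate 3 of that group (0.0856). With brown fat and skeletal muscle terms both were lost as well (0.0517 and 0.0514). Macrophage markers were higher at 22 weeks in 13 of 14.

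In WT aortas on WD, 2 members were higher and 2 lower at 22 than at 6 weeks, beside 3.21% and 3.46% of genes. S1pr1 had 60.4, 58.1 and 102 at 22 weeks and 131, 177 and 179 at 6 weeks (-1.16 ± 0.29, adjusted p = 0.0206), and Sgpl1 had 93.5, 70.5 and 90.5 at 22 weeks and 379, 132 and 198 at 6 weeks (-1.34 ± 0.36, adjusted p = 0.0287). S1pr2 was higher by 0.91 ± 0.27 (adjusted p = 0.0429) and Sgpp1 by 0.72 ± 0.16 (adjusted p = 0.0102). Endothelial markers were lower in 6 of 12, at 1409 to 1658 at 22 weeks, against 1992 to 2361 at 6 weeks, and adventitial fibroblast markers were higher in 7 of 12, at 7124 to 11043 at 22 weeks, against 3774 to 5719 at 6 weeks; their part was not tested. Brown fat markers summed to 3228 to 5519 at 22 weeks and 7240 to 14644 at 6 weeks, and with the brown fat term none of the 4 was called (adjusted p 0.156 to 0.348). The sums did not overlap, so the term and the duration cannot be told apart. Without single libraries each of the 4 lost its call at least once: without WT WD 6 weeks replicate 1, Sgpl1 was at an adjusted p of 0.193, S1pr2 at 0.192 and Sgpp1 at 0.0604, and without WT WD 22 weeks replicate 2, S1pr1 was at 0.123, Sgpl1 at 0.141, S1pr2 at 0.122 and Sgpp1 at 0.0567.

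In the remaining time contrasts, Spns2 was higher at 22 than at 6 weeks in EKO on chow, with 22.6, 17.9 and 31.5 at 22 weeks and 13.8, 13.5 and 15.8 at 6 weeks (0.67 ± 0.24, adjusted p = 0.0385, 1 of 8 members, beside 13.3% of genes higher and 13.7% lower); that call ended without any 1 of the 6 libraries other than EKO chow 22 weeks replicate 2 (adjusted p 0.075 to 0.208), and with the brown fat term it was at 0.38 (adjusted p = 0.32). By limma, 0 members were called in WT on chow, EKO/hA-I on chow and EKO/hA-I on WD, beside 0.120%, 0.00706% and 0.0706% of genes called. At an unadjusted p under 0.05 these contrasts had 1, 2 and 3 members, without a share of all genes at that threshold. For Sgpl1, 22 minus 6 weeks on WD was 0.79 ± 0.36 in EKO, not called (adjusted p = 0.163), against the called -1.34 ± 0.36 in WT. The difference between them was 2.13 ± 0.51 (adjusted p = 0.00873, 1 member beside 8.64% of genes), and that call stood under every setting tried. For S1pr2, 22 minus 6 weeks on WD was -0.49 ± 0.27 in EKO/hA-I, not called (adjusted p = 0.298), against the called 0.96 ± 0.27 in EKO. These differed by -1.44 ± 0.38 (adjusted p = 0.024, 1 member beside 5.12% of genes). That call ended with the brown fat term (adjusted p = 0.235) and without EKO WD 6 weeks replicate 2, EKO WD 22 weeks replicate 1 or 3, EKO/hA-I WD 6 weeks replicate 2 or 3 or EKO/hA-I WD 22 weeks replicate 1 (0.0513 to 0.0899). With the replicate block 2 members were called, Sphk1 being the other.

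S1pr2 was also higher in EKO than in WT in other settings. It was the only member of 8 called at 22 weeks on chow, beside 7.35% of genes higher and 7.94% lower, with 20.6, 15.5 and 13.0 in EKO and 13.8, 4.64 and 8.60 in WT libraries (0.88 ± 0.27, adjusted p = 0.0281), a call lost without WT replicate 2 (0.166), WT replicate 3 (0.0537) or EKO replicate 1 (0.169). On WD at 6 weeks it had 22.2, 15.2 and 19.2 in EKO and 6.83, 8.38 and 10.8 in WT libraries (1.04 ± 0.27, adjusted p = 0.0241), and Sphk1 had 8.82, 4.2 and 9.98 in EKO and 1.82, 2.99 and 3.18 in WT libraries (1.19 ± 0.33, adjusted p = 0.0336). No values overlapped in either gene there, 2 of 8 members being called beside 3.94% of genes higher and 1.50% lower. Both calls were lost without WT WD 6 weeks replicate 1 (adjusted p = 0.203 for Sphk1 and 0.159 for S1pr2) or replicate 2 (0.0629 and 0.0637), without EKO WD 6 weeks replicate 1 (0.174 and 0.149) or replicate 3 (0.151 and 0.0698), and with the brown fat term (0.186 and 0.129). Macrophage markers were higher in 7 of 14 on WD at 6 weeks, at 958 to 1896 in EKO libraries, against 271 to 647 in WT ones, and adventitial fibroblast markers in 11 of 12, at 9859 to 14648 in EKO, against 3774 to 5719 in WT. On chow at 22 weeks macrophage markers were higher in 12 of 14, at 1117 to 1844 in EKO, against 235 to 348 in WT, and adventitial fibroblast markers in 7 of 12, at 6515 to 9854 in EKO, against 3157 to 8229 in WT. Their part in the results was not tested. At 6 weeks on chow 0 members were called (limma, Sphk1 and S1pr2 at an unadjusted p under 0.05), beside 4.97% of genes.

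On chow at 22 weeks, EKO/hA-I aortas had 1 member higher and 2 lower than EKO aortas, beside 13.7% and 14.9% of genes. Sgpl1 had 64.1, 108 and 68.0 in EKO/hA-I and 149.7, 182 and 231 in EKO libraries (-1.24 ± 0.36, adjusted p = 0.0132), Spns2 had 11.8, 16.9 and 10.4 in EKO/hA-I and 22.6, 17.9 and 31.5 in EKO libraries (-0.83 ± 0.24, adjusted p = 0.0121), and Sgpp1 was higher by 0.44 ± 0.16 (adjusted p = 0.0385). Brown fat markers were lower in 5 of 10 and higher in 1, at 1847 to 2208 in EKO/hA-I libraries, against 4202 to 7813 in EKO ones, and white fat markers were lower in 8 of 10. With the brown fat term none of the 3 was called (adjusted p 0.122 to 0.472). Brown fat sums did not overlap, so the term and the genotype cannot be told apart. Leaving out EKO replicate 3 or EKO/hA-I replicate 3 also ended all 3 calls (0.0589 to 0.184), and Sgpp1 lost its call without EKO replicate 2 (0.0763) or EKO/hA-I replicate 2 (0.128). Y-linked transcripts were missing in 0 of 3 EKO/hA-I and 2 of 3 EKO libraries, and a term for this left the 3 calls in place.

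Between EKO/hA-I and EKO at 6 weeks, 0 members were called on chow (limma, n = 2 against 3, 1 at an unadjusted p under 0.05) and 0 on WD (0 unadjusted), beside 0.0777% and 0.0706% of genes. Set against WT on chow at 22 weeks, S1pr2 was higher in EKO/hA-I, with 19.0, 15.1 and 23.2 in EKO/hA-I and 13.8, 4.64 and 8.60 in WT libraries (1.09 ± 0.27, adjusted p = 0.00994, 1 of 8 members, beside 6.51% of genes higher and 7.29% lower). Adventitial fibroblast markers were higher in 12 of 12 there, at 12530 to 17967 in EKO/hA-I libraries, against 3157 to 8229 in WT ones, and their part was not tested. The S1pr2 call was lost with the brown fat term (0.184), without WT chow 22 weeks replicate 2 (0.0974) and without EKO/hA-I chow 22 weeks replicate 3 (0.058).

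Averaged over both diets and durations, Sphk1 was higher in EKO than in WT by 1.04 ± 0.16 (adjusted p = 2.6e-05) and S1pr2 by 0.91 ± 0.14 (adjusted p = 1.01e-05), 2 of 8 members beside 31.6% of genes. Sphk1 alone was called in EKO/hA-I against EKO, at -0.87 ± 0.17 (adjusted p = 0.00131), beside 8.32% of genes. WD against chow, averaged over genotypes and durations, called S1pr1 at 0.58 ± 0.12 (adjusted p = 0.00219) and Sgpl1 at 0.52 ± 0.15 (adjusted p = 0.0208), beside 15.1% of genes. Both were lost with the brown fat term (0.0535 and 0.369), and Sgpl1 without EKO/hA-I chow 6 weeks replicate 1 (0.0579). For 22 against 6 weeks 0 members were called (limma, Sgpp1 and S1pr3 at an unadjusted p under 0.05), beside 2.09% of genes. These averages combine unlike cells: the Sphk1 difference between EKO and WT was 2.30 on WD and -0.04 on chow at 22 weeks.

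Any difference among the 12 groups was called in 6 of 8 members, beside 56.7% of genes, by limma's F test. The exceptions were Sphk2 (adjusted p = 0.215) and S1pr3 (adjusted p = 0.269). Group means of Sphk1 spanned 6.52-fold, those of S1pr2 4.32-fold, of Sgpl1 3.59-fold, of S1pr1 3.05-fold, of S1pr3 2.95-fold, of Spns2 2.78-fold, of Sgpp1 1.67-fold and of Sphk2 1.6-fold.

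Ordered by mean, Sphk1 stood at 17.4 in EKO on WD for 22 weeks, then 7.66 in EKO on WD for 6 weeks, and between 2.66 and 5.19 in the other 10 groups. The step from 17.4 to 7.66 was the only 1 of 11 between neighbours in the order that exceeded their spread. Spread is here the square root of the summed squared SDs of the 2 neighbouring groups. S1pr2 was highest in EKO on WD for 22 weeks (37.5), then 21.0 in EKO/hA-I on WD for 6 weeks, and lowest in WT on WD for 6 weeks (8.68); 3 of its 11 steps exceeded the spread. S1pr1 ran from 198 in EKO/hA-I on WD for 22 weeks to 64.9 in EKO/hA-I on chow for 22 weeks. Its 2 steps over the spread were those below that highest group and below WT on WD for 6 weeks (162). Libraries of that WT group ran from 131 to 179, and those of EKO on WD for 6 weeks reached 147. Spns2 ran from 36.2 in EKO/hA-I on WD for 22 weeks, which stood apart, to 13.0 in EKO/hA-I on chow for 22 weeks.

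The lyase Sgpl1 was at 287 in EKO on WD for 22 weeks and at 80.1 in EKO/hA-I on chow for 22 weeks, with 0 of 11 steps over the spread, though its highest single library, at 379, was WT WD 6 weeks replicate 1, which also had the highest brown fat markers. Sgpp1 lay between 34.0 in WT on WD for 22 weeks and 20.4 in WT on WD for 6 weeks, and its last step, to WT on WD for 6 weeks, exceeded the spread. Sphk2 lay between 58.1 in EKO on WD for 22 weeks and 36.4 in WT on chow for 6 weeks, with 0 steps over the spread. S1pr3 varied widely within 2 groups: in EKO on chow for 6 weeks it had 50.7, 28.3 and 6.68, and in EKO/hA-I on chow for 6 weeks 25.0 and 60.1. The libraries at 60.1 and 50.7 were the 2 with the highest sympathetic nerve markers, summing to 2721 and 2370.1.

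Across the 35 libraries the members fell along a few lines. These are Pearson correlations of log2(value + 1), given as descriptions of libraries that share groups and tissue make-up. Sgpl1 correlated with S1pr1 at r = 0.731 and with Spns2 at 0.772, S1pr1 with Spns2 at 0.76, and Sphk1 with S1pr2 at 0.681, while Sgpp1 ran against Sgpl1 (-0.54), S1pr1 (-0.638) and brown fat markers (-0.81). S1pr1 correlated with the mean of endothelial markers at 0.78 and with brown fat markers at 0.676. Spns2 and Sgpl1 ran against smooth muscle markers at -0.793 and -0.795, S1pr2 went with macrophage (0.759) and adventitial fibroblast markers (0.831), Sphk1 with macrophage markers (0.709), and S1pr3 with sympathetic nerve markers (0.63).

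**Figure D4:**
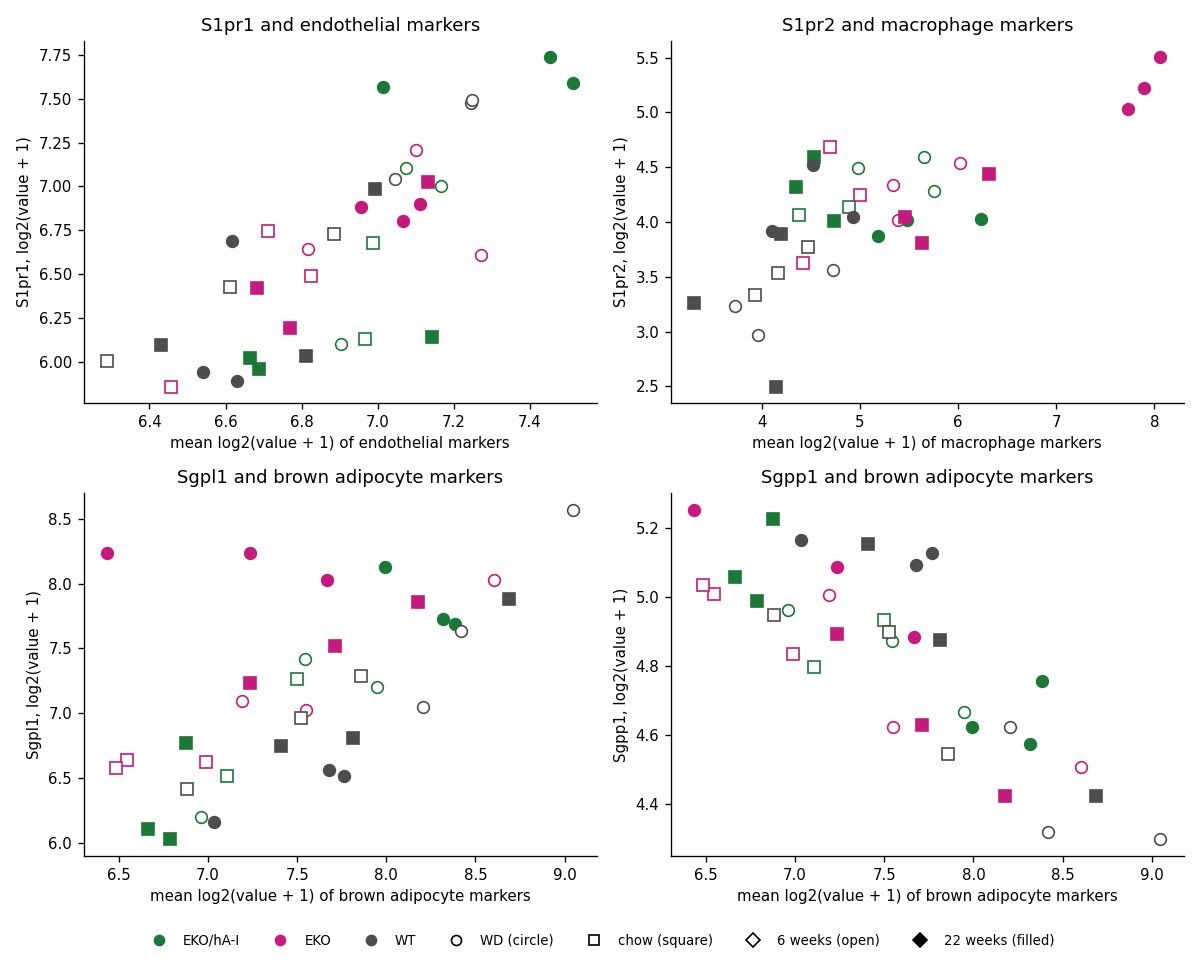
Log2(value + 1) of 4 members (vertical axes) against the mean log2(value + 1) of a marker list (horizontal axes) in 35 libraries, by genotype (colour), diet (shape) and duration (fill). S1pr1 climbs with endothelial markers (r = 0.78), S1pr2 with macrophage markers (r = 0.759) with the 3 EKO libraries on WD for 22 weeks apart at the upper right, and Sgpl1 climbs (r = 0.616) and Sgpp1 declines (r = -0.81) with brown fat markers, with EKO libraries on WD for 22 weeks above others of like brown fat value in Sgpl1.

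Genes with the most similar pattern over the 35 libraries, out of 10553 searched, differed by member. For Sphk1 they were the nucleotide receptor P2ry6 (r = 0.925), Fam129b (0.92) and the tetraspanin Cd63 of late endosomes (0.91). For S1pr2 they were the gelatinase Mmp2 (0.924), the protease cathepsin K, Ctsk (0.907), and the lysosomal mannosidase Man2b2 (0.905). S1pr1 was closest to the alkaline ceramidase Acer2 (0.935), the adhesion receptor Adgrg1 (0.915) and VE-cadherin, Cdh5 (0.891). Sgpl1 was closest to the purine phosphorylase Pnp (0.923) and the lysosomal galactosylceramidase Galc (0.912), and Spns2 to Sema6b (0.874), Jak3 (0.849) and Itpripl1 (0.84). The likest genes of the remaining members were weaker, Phc2 for Sphk2 (0.823), Txndc16 for Sgpp1 (0.82) and Cadm4 for S1pr3 (0.785).

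The wider pathway was read from 3 lists of 45 genes in all, 43 of them tested. The shares of all genes printed for a comparison hold for each list in it. Tissue terms and left-out libraries were read for the members only, so the pathway calls carry no such check. Macrophage markers also differed in the comparisons below, as given above, and their part in the pathway calls was not tested. Comparing EKO with WT after 22 weeks of WD, 6 of 17 genes that supply, move or remove S1P were higher and 0 lower, beside 14.8% and 7.20% of all genes, with a median log2 difference of 0.20 against -0.01 over all genes. Asah1, the acid ceramidase that frees sphingosine in lysosomes, averaged 201 ± 36.4 in EKO and 91.3 ± 6.12 in WT (1.12 ± 0.14, adjusted p = 8.49e-07). Acer3, an alkaline ceramidase (1.04 ± 0.15), Cers6, a ceramide synthase (1.90 ± 0.28), and the lipid exporter Abca1 (2.39 ± 0.36) were also higher. Of 6 carriers and HDL partners, 2 were higher: the phospholipid transfer protein Pltp (2.52 ± 0.24) and the HDL receptor Scarb1 (1.02 ± 0.27). Among 20 genes of receptor signalling, 4 were higher and 0 lower, beside the same shares of all genes: the arrestins Arrb2 (1.85 ± 0.22) and Arrb1 (0.86 ± 0.14) and the G protein subunits Gna13 (0.72 ± 0.17) and Gnaq (0.33 ± 0.09).

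Comparing EKO/hA-I with EKO at that time, the supply list had 1 gene higher and 6 lower of 17, beside 5.96% and 12.9% of all genes. Asah1 averaged 69.0 ± 15.5 in EKO/hA-I and 201 ± 36.4 in EKO and fell by 1.54 ± 0.14 (adjusted p = 2.14e-08), while Acer3 fell by 1.07 ± 0.15, the lipid phosphatase Plpp2 by 1.12 ± 0.17 and the ceramide synthase Cers5 by 0.56 ± 0.12. The 1 gene higher was Acer2, chosen after its values were seen, at 125 ± 21.6 in EKO/hA-I and 50.3 ± 14.7 in EKO (1.32 ± 0.40, adjusted p = 0.0231). Its next highest group mean was 103, in WT on WD for 6 weeks, where the brown fat sum reached 14644. After 22 weeks of WD, every EKO/hA-I library had a brown fat sum of at least 6135, whereas the highest EKO library had 5367. The part of brown fat and skeletal muscle markers in the Acer2 call was not tested. The carriers had 1 of 6 lower, Pltp, at -1.74 ± 0.24, and receptor signalling 1 higher and 7 lower of 20, among them Arrb2 (-1.20 ± 0.22), Gnaq (-0.36 ± 0.09), Gnai3 (-0.37 ± 0.10) and the GTPase Rac1 (-0.30 ± 0.08).

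In EKO aortas at 22 weeks, WD against chow had 6 of 17 supply genes higher, beside 13.9% of all genes. They included Asah1 by 1.23 ± 0.14, Acer3 by 1.13 ± 0.15, Cers6 by 1.67 ± 0.28 and Plpp2 by 0.77 ± 0.17. Of 6 carriers, 1 was higher, Pltp by 1.68 ± 0.24. Signalling genes had 7 of 20 higher and 1 lower, beside 13.9% and 4.80% of all genes, with Arrb2 at 1.34 ± 0.22, Gnai3 at 0.50 ± 0.10, Gna13 at 0.81 ± 0.17 and Gnaq at 0.41 ± 0.09. For 22 against 6 weeks in EKO on WD, 5 of 17 supply genes were higher, beside 10.5% of all genes, among them Cers6 (1.60 ± 0.28), Abca1 (1.47 ± 0.36), Acer3 (1.16 ± 0.15) and Asah1 (1.04 ± 0.14). The carriers had 1 of 6 higher, Pltp (1.83 ± 0.24), and signalling had 3 of 20 higher and 1 lower, beside 10.5% and 2.97%. The signalling genes were Arrb2 (1.65 ± 0.22), Gna13 (0.67 ± 0.17) and Arrb1 (0.48 ± 0.14), and the lower one Gna11 (-0.52 ± 0.14). All of these comparisons share EKO on WD for 22 weeks, so their counts are not independent.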

How the data were processed

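The authors deposited 1 table of normalised signal, with a column of read signal per library whose columns add to between 907492 and 1137740. Bowtie 0.12.2, Bowtie2 and RSEM and the builds mm8 and mm9 are named, per the submitters' processing notes, with no role or order; counting and normalisation are not given in the sources used here. Of values at or below 1.5, 71.5 to 81.5% lay within 0.02 reads of a whole number, so counts were not recovered. Groups came from the library titles, and no label ties a library to an animal, so part of the spread behind the p-values may be technical. With limma 3.58.1 in R 4.3.3 (robust, intensity trend), log2(value + 1) was fitted in 1 model of 12 groups over the 14157 genes that reached 1 in 3 or more libraries, 17 failing, in 30 comparisons, two-sided, Benjamini-Hochberg adjusted within each, threshold 0.05; fold changes understate low genes. The script was tested on simulated data. The members, gene lists and tests were chosen with earlier results of these data known. Named genes are all members, up to 4 pathway genes of smallest p per list in 4 comparisons, and up to 3 likest genes of a member, of which 1 is not reported here. Residuals of same-numbered libraries from the group fit correlated above 0.1 in every pair of 22 against 6 weeks in WT on WD (lowest 0.132), of EKO on WD (lowest 0.122) and of EKO/hA-I on chow (2 pairs, lowest 0.28), with no label behind the pairing. Every other contrast of 2 groups had a pair that was not above 0.1, down to -0.74 in EKO/hA-I against EKO on chow at 6 weeks. In a group of 2 libraries the residuals mirror each other, so its 2 pairs are not independent. Alternatives were a replicate block, other pseudocounts, no filter, median-ratio rescaling, terms for tissue markers and sex, no moderation, fits of fewer groups and each library left out; the brown fat term alone was added after seeing the data.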

Additional observations from a re-analysis of the deposited data

Results flagged for a closer look

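Effects of diet or time that differed between genotypes by a test of the difference itself were found 8 times among the members, on the log2 scale. Of all genes, 6.21% were called for the diet effect in EKO minus WT and 34.2% in EKO/hA-I minus EKO. For the time effect on WD these shares were 8.64% and 5.12%. The effect of WD at 22 weeks on Sphk1 was larger in EKO than in WT by 2.34 ± 0.47 (limma, adjusted p = 0.00269). In EKO/hA-I minus EKO, that effect differed by -2.29 ± 0.47 for Sphk1, -1.49 ± 0.38 for S1pr2, -0.86 ± 0.22 for Sgpp1, 1.28 ± 0.41 for S1pr1 and 1.25 ± 0.34 for Spns2. With the brown fat term none of these 5 was called, at -1.21, -0.86, -0.19, 0.27 and 0.69 (adjusted p 0.159 to 0.747). The effect of time on WD differed by 2.13 ± 0.51 for Sgpl1 in EKO minus WT and by -1.44 ± 0.38 for S1pr2 in EKO/hA-I minus EKO, which was not called with the brown fat term (adjusted p = 0.235). Groups held 2 or 3 libraries, so single libraries were not tested as outliers.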

How the results depend on the processing

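Of 43 calls of a member in a comparison, 43 stood with the replicate block (pairing by title number), pseudocounts of 0.1 or 5, no filter, median-ratio rescaling, a Y-linked term, or without trend and robust moderation; 42 stood without the library whose tag conflicts, 32 of 41 with the compared groups alone, 23 through the omission of each library, 19 with the brown fat term (chosen after seeing the data) and 16 with brown fat and skeletal muscle terms. The direction reversed once, for Sgpp1 in WD against chow in EKO/hA-I at 22 weeks, at 0.0424 with the brown fat term. Where brown fat sums of the compared groups did not overlap, that term cannot be told apart from the factor compared. Counts of members called that moved by over 1.5 times follow; the cause was not tested.

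With the compared groups alone, 0 members were called for EKO against WT after 22 weeks of chow or 6 of WD and in EKO/hA-I against WT on chow at 22 weeks, 1 in 22 against 6 weeks in WT on WD and 3 for the time effect on WD in EKO minus WT. With both tissue terms and with the brown fat term alone alike, 0 were called for EKO against WT after 6 weeks of WD, EKO/hA-I against EKO and EKO/hA-I against WT on chow at 22 weeks, WD against chow in EKO/hA-I at 22 weeks, 22 against 6 weeks in WT on WD and in EKO on chow, and the diet and time effects in EKO/hA-I minus EKO, and 2 in the averaged EKO/hA-I against EKO and the diet and time effects in EKO minus WT. With both terms, 1 was called for EKO/hA-I against EKO after 22 weeks of WD, 2 for EKO/hA-I against WT then and 1 in 22 against 6 weeks in EKO on WD, where Sgpl1 was gained and Sphk1 and S1pr2 were lost. The averaged EKO against WT had 5 with both terms and 4 with brown fat alone. For the time effect on WD, 2 were called in both genotype differences with a pseudocount of 5, 2 in EKO minus WT without the conflicting library, and 2 in EKO/hA-I minus EKO with the replicate block or median-ratio rescaling.

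With each library left out in turn, the count ran from 0 to 1 in EKO against WT on chow at 6 and at 22 weeks, 0 to 2 on WD at 6 weeks and 4 to 5 on WD at 22 weeks. It ran from 0 to 4 and 2 to 3 in EKO/hA-I against EKO on chow and WD at 22 weeks, and from 0 to 2 and 2 to 3 in EKO/hA-I against WT on chow and WD at 22 weeks. For WD against chow at 22 weeks it was 0 to 1 in WT, 2 to 3 in EKO and 3 to 4 in EKO/hA-I. For 22 against 6 weeks it was 0 to 4 in WT on WD, 0 to 1 in EKO on chow and 0 to 3 in EKO on WD. The averages of EKO against WT and of diet gave 2 to 3 and 1 to 4, the diet effect in EKO/hA-I minus EKO 4 to 5, the time effects 1 to 2 in EKO minus WT and 0 to 2 in EKO/hA-I minus EKO, and the F test 6 to 7. Depth limits Sphk1 most, with 12 to 309 reads per library.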

Other observations

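S1pr4, found mainly on blood cells, had group means between 2.89 and 8.71, and S1pr5, known from natural killer cells and oligodendrocytes, between 1.14 and 4.89. The S1pr4 mean of 8.71 ± 7.55 (SD, n = 3) was in EKO/hA-I on WD for 22 weeks, where libraries ran from 3.55 to 17.4. The next highest mean of S1pr4 was 5.77, in EKO on chow for 22 weeks. Neither was called in EKO/hA-I against EKO after 22 weeks of WD (limma, 0.85 with adjusted p = 0.0566 for S1pr4 and 0.98 with adjusted p = 0.0514 for S1pr5). S1pr5 was higher on WD than on chow in EKO/hA-I aortas at 22 weeks by 1.08 (adjusted p = 0.0186), beside 20.7% of genes higher. These were low values, with means of 4.89 on WD and 1.79 on chow, and tissue terms were not read for it. Other calls of S1pr5 included 22 against 6 weeks in EKO on chow (1.30, adjusted p = 0.00924), beside 13.3% of genes higher. Another was EKO/hA-I against WT after 22 weeks of WD (1.08, adjusted p = 0.0351), beside 8.51%.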
